A study of Mus musculus with 2 samples.

Results

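The genes described here encode secreted proteins of 3 mouse families with members made by alternatively activated macrophages. The proteins are the chitinase-like Chil3 and Chil4, the resistin-like Retnla and Retnlg, and the eosinophil-associated ribonucleases Ear11 and Ear2. The genes were chosen by symbol from these families, 6 genes of 23444 listed in each of the deposited tables. RNA was sequenced from cultured bone marrow derived macrophages of FVB mice, an inbred strain, in 2 libraries. The RON TK-/- labelled library came from RON deficient mice, in which the tyrosine kinase part of the receptor RON is missing in all cells, and the WT labelled library from RON proficient wild type mice of the same strain. Per both labels, the cells had received recombinant interleukin-4 (10 ng/mL) over 72 hours, and untreated cells were not analysed here. With 1 library per group no test was possible, no spread between replicates can be given, and every difference below is between 2 libraries and not between genotypes. The sources used here do not give the number of animals behind each library.

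Interleukin-4 binds a receptor that activates the transcription factor STAT6, which in macrophages switches on a program known as alternative or M2 activation. Chil3 (also called Ym1) and Retnla (also called RELM-alpha or Fizz1) are among the standard mouse markers of that program. Chitinase-like proteins keep the fold of a chitinase but have lost the ability to cut chitin. Resistin-like proteins are small cysteine-rich secreted proteins, and the Ear proteins belong to the RNase A family, named for their abundance in eosinophil granules.

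Levels are FPKM as deposited, read numbers scaled for transcript length and for the depth of the library. Read depth was implied by the deposited coverage at 67100000 reads in the RON TK-/- labelled library and 59800000 in the WT labelled library. Mst1r, which encodes RON, was listed at 0 FPKM in both libraries, so it checked neither label. The macrophage markers were present in both, with 10 of 11 at 1 FPKM or more in each library, among them Lyz2 (lysozyme) at 4651 FPKM in the RON TK-/- labelled library and 3317 FPKM in the WT labelled library. The treatment label of the other library went against its values. The WT labelled library held Arg1, the arginase of alternative activation, at 1.005 FPKM and Nos2, the inducible nitric oxide synthase of inflammatory activation, at 1100 FPKM although its label states interleukin-4. For this reason the groups are called by their labels throughout, and genotype, treatment and labelling cannot be told apart as sources of a difference.

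Chil3, Retnla, Ear11, Chil4 and Ear2 were abundant or moderately expressed under the RON TK-/- label and at or near 0 under the WT label, and Retnlg was at 0 in both libraries. In bulk RNA more cells that express a gene and more RNA per cell cannot be told apart. The 6 genes summed to 9287 FPKM, or 2.08% of all FPKM, in the RON TK-/- labelled library, against 0.135 FPKM in the WT labelled library. In the RON TK-/- labelled library 5 genes had at least 1 FPKM, and in the WT labelled library 0 did, where Ear2 was the only gene listed above 0. Within the RON TK-/- labelled library the levels ran from Chil3 through Retnla, Ear11, Chil4 and Ear2 down to Retnlg. With 1 library the spread around these levels is unknown.

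**Figure D1:**
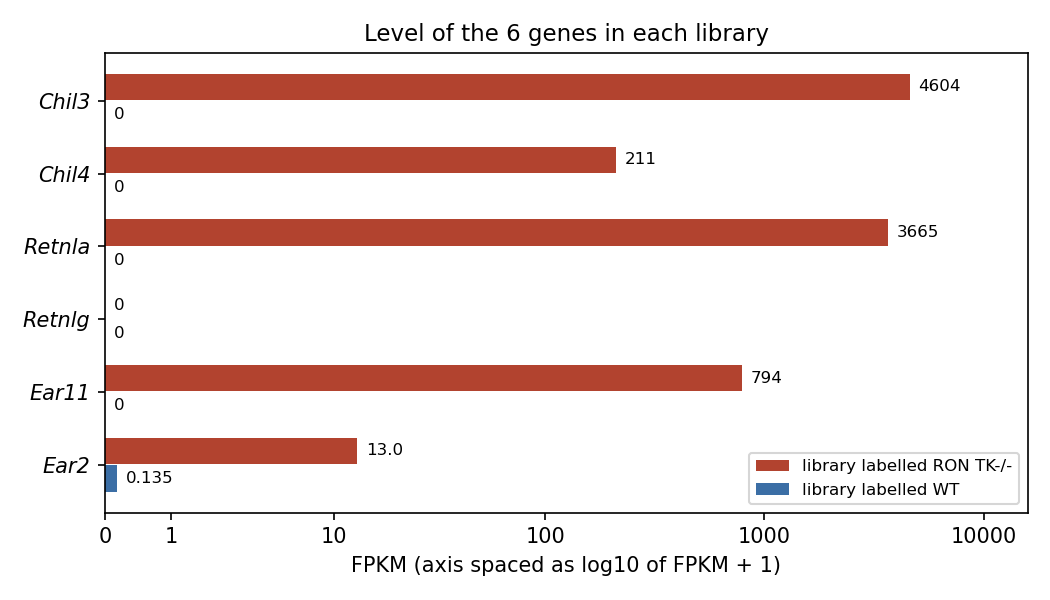
FPKM of each gene in the RON TK-/- labelled library (red) and the WT labelled library (blue), on an axis spaced as log10 of FPKM + 1. Chil3 (4604 FPKM) and Retnla (3665 FPKM) were highest in the RON TK-/- labelled library, and Ear2 (0.135 FPKM) was the only gene above 0 in the WT labelled library.

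A gene was taken as detected with at least 1 FPKM in a library, and a difference was counted from 2-fold upwards on the scale of FPKM + 1. By that rule 5 of the 6 genes were higher in the RON TK-/- labelled library and 0 were lower. Among 11288 detected genes the share was 25.6% for higher and 8.71% for lower. A gene that is detected through 1 library alone must lie apart on this scale once its level there is well above the minimum, so the count describes the 5 genes and does not support anything. Over all detected genes the log2 ratio had a median of 0.57, and a rescaling of the libraries to a common median changed the split of all genes from 2890 higher and 983 lower to 1116 higher and 1464 lower. All 5 genes lay above 2-fold on either scaling.

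**Figure D2:**
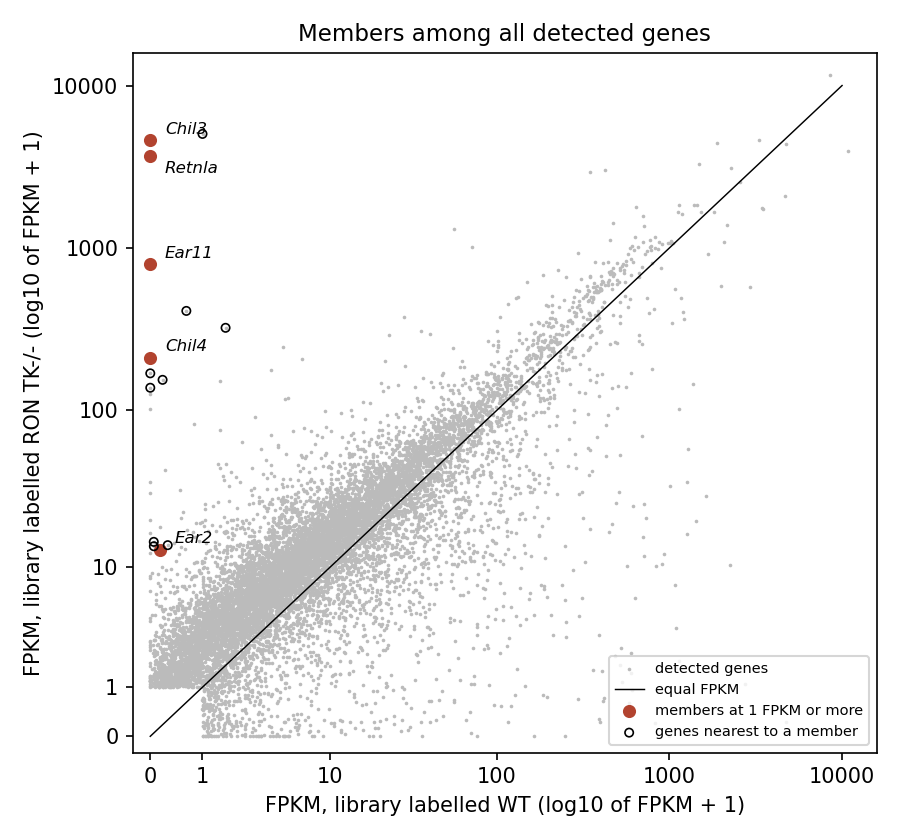
Each detected gene by its FPKM in the RON TK-/- labelled library (vertical) and the WT labelled library (horizontal), both axes spaced as log10 of FPKM + 1, with the line of equal FPKM. The 5 detected genes of the set (red) lie along the left edge, at 0 to 0.135 FPKM in the WT labelled library, and open circles mark the genes nearest to them.

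Chil3 binds carbohydrates such as heparan sulfate and is the best known chitinase-like protein of mouse macrophages. It had 4604 FPKM in the RON TK-/- labelled library and was listed at 0 in the WT labelled library. It ranked 4 among all genes of the RON TK-/- labelled library and took 1.03% of its FPKM. Its transcript of 1539 bases, NM_009892, spans 106147554 to 106167564 of chromosome 3 (mm10), and an estimated 478130 reads lay behind the value. In the WT labelled library 3 reads would have given 0.0326 FPKM, a limit that covers counting error only and assumes that the listed 0 was not a failed estimate.

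Chil4 (also called Ym2) is the close paralog of Chil3. It had 211 FPKM in the RON TK-/- labelled library, rank 335, and was listed at 0 in the WT labelled library. Chil3 was 21.8 times as abundant as Chil4 in the RON TK-/- labelled library, a ratio of levels per length. Chil4 lies 33.9 kb from Chil3, from 106201491 to 106219479 of chromosome 3 (NM_145126, 1510 bases). Its value rested on an estimated 20348 reads.

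Both genes are copies of one another over much of their length, which matters for reads of 50 bases. Their transcripts in the GENCODE annotation (release M21, same genome) were 94.2% identical over 1543 aligned positions. Of the 1490 stretches of 50 bases in the Chil3 transcript, 29.4% also occur in a transcript of another gene, 275 of them in Chil4 and 217 in the gene model Gm6522. For Chil4 20.4% of 1490 stretches were shared. Reads from such stretches could have been split between the copies, so the single levels of Chil3 and Chil4 are uncertain. Most stretches of each belong to that gene alone. With an estimated 478130 reads for Chil3 and 20348 for Chil4, reads moved between them would change the level of Chil4 more than that of Chil3. The 21.8 times difference between their levels would change with it.

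Their promoter windows are shown because both genes were high in the same library. Each window, from RefSeq on GRCm38.p6, the mm10 genome, runs from 250 bases before the annotated start to 50 bases after it, 5′ to 3′ on the strand of the gene, and the reference is C57BL/6J and not FVB. Capitals mark matches to the STAT-type motif TTCNNNGAA, in which N is any base; it was searched on both strands and reads the same on each.
Chil3, chr3:106167515-106167814, minus strand: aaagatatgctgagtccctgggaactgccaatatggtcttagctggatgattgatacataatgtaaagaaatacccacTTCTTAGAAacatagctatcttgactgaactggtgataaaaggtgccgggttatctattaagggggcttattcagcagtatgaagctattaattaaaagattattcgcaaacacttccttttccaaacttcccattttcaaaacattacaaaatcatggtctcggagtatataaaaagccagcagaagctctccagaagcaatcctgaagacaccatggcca
Chil4, chr3:106219430-106219729, minus strand: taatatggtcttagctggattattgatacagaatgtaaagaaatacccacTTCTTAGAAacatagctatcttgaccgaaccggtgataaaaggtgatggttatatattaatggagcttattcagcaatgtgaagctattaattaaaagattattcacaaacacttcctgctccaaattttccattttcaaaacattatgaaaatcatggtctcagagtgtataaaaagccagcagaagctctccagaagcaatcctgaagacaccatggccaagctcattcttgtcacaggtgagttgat
The windows were 91.9% identical over 273 aligned positions, with 20 mismatches and 2 gap positions. Both held TTCTTAGAA, from -172 to -164 in Chil3 and from -200 to -192 in Chil4, where negative positions count bases before the annotated start. Of 32851 windows of the same 300 bases across the genome 8.30% held a match to that motif. In the family 3 of 9 genes with a window held one, and the third was Chil6, which was at 0 FPKM in both libraries. Another STAT-type motif, TTC followed by any 4 bases and then GAA, the spacing that STAT6 is known to prefer, was in neither window. A match describes these letters and is not evidence of binding.

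Other chitinase-like genes had lower levels than Chil3 and Chil4 under the RON TK-/- label. Under the WT label Chil1, Chid1, Ctbs and Ovgp1 were above Chil3 and Chil4, which were listed at 0. Besides Chil3 and Chil4, 7 genes of the family were listed and 3 were detected, of which 0 were at least 2-fold higher, 1 was lower and 2 were within 2-fold. The 2 were Chid1 and Ctbs, which reached 1 FPKM in both libraries. Of all genes that did, 22.7% lay higher and 7.67% lower. Chil1 (also called BRP-39), a chitinase-like protein of inflamed tissue, was the lower gene, with 0.0812 FPKM in the RON TK-/- labelled library and 8.37 FPKM in the WT labelled library, a log2 ratio of -3.12. Chil1 reached 1 FPKM under the WT label alone, so its direction was fixed by the way it was detected. Chid1 had 16.001 FPKM in the RON TK-/- labelled library and 7.64 FPKM in the WT labelled library. The lysosomal chitobiase gene Ctbs had 7.96 FPKM under the RON TK-/- label and 5.43 FPKM under the WT label, with a log2 ratio of 0.48 that turned to -0.02 after median rescaling. Ovgp1, the oviduct glycoprotein gene, had 0.145 FPKM in the RON TK-/- labelled library and 0.0950 FPKM in the WT labelled library. Among the active chitinases, Chit1 had 0.0398 FPKM in the RON TK-/- labelled library and was listed at 0 in the WT labelled library, and Chia1 was at 0 in both, as was Chil6.

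Retnla encodes a secreted protein that rises in type 2 inflammation and worm infection in mice. It had 3665 FPKM in the RON TK-/- labelled library, rank 8 and 0.821% of all FPKM, and was listed at 0 in the WT labelled library. The Retnla transcript NM_020509, of 598 bases, lies on chromosome 16 from 48842552 to 48844461. An estimated 147456 reads lay behind its level, and 3 reads in the WT labelled library would have given 0.0839 FPKM. None of its 550 stretches of 50 bases occurs in a transcript of another gene, so this level is not subject to the sharing seen for Chil3 and Chil4.

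Retnlg (also called RELM-gamma) is known mainly from bone marrow and neutrophils of mice. It was listed at 0 in the RON TK-/- labelled library and at 0 in the WT labelled library. Its locus (48872608 to 48874498, NM_181596) begins 28.1 kb beyond the end of Retnla. Its detection limit, taken as 3 reads, was 0.0735 FPKM in the RON TK-/- labelled library and 0.0826 FPKM in the WT labelled library. Each of its 544 stretches of 50 bases was its own. The intestinal family gene Retnlb, 23.7 kb on the other side of Retnla, was also at 0 in both libraries. Retn, which encodes resistin, a hormone of fat cells in mice, was listed at 0 in the RON TK-/- labelled library and at 0.162 FPKM in the WT labelled library. Of the 4 resistin family genes Retnla was the only one detected.

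Retnla and Retnlg differed in level in the RON TK-/- labelled library, and their promoter windows are shown for comparison, with capitals for matches to the motif of TTC, any 4 bases and GAA, which also reads the same on both strands.
Retnla, chr16:48842359-48842658, plus strand: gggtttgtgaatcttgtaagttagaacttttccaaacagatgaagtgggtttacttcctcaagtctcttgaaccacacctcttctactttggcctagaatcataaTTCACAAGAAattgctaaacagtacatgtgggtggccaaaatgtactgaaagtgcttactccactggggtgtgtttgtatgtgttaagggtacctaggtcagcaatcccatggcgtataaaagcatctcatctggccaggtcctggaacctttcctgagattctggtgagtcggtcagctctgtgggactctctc
Retnlg, chr16:48872358-48872657, plus strand: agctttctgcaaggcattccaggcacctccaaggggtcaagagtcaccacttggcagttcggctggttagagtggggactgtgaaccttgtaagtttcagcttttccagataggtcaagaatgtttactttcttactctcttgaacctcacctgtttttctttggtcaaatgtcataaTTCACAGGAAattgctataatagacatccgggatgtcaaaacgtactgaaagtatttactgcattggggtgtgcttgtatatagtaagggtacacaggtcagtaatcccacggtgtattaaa
The windows were 78.1% identical over 228 aligned positions, against 52.2% to 57.2% for the 12 pairs of genes from different families. Retnla held TTCACAAGAA from -145 to -136, and Retnlg held TTCACAGGAA from -72 to -63. The matches differ by A7G, counted from 1 at the 5′ end of the match, with the Retnla base first. In the genome 6.95% of windows held a match to this motif, and among the 3 resistin family genes with a window Retn held none. Retnla and Retnlg both carried the motif while Retnla had 3665 FPKM and Retnlg was at 0 in the RON TK-/- labelled library.

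Ear11, listed as Rnase2a in newer annotation, encodes a ribonuclease that attracts macrophages in mice. It had 794 FPKM in the RON TK-/- labelled library, rank 66, and was listed at 0 in the WT labelled library. Its row (NM_053113, 690 bases) spans 51255262 to 51256112 on chromosome 14, with an estimated 36722 reads. All of its 641 stretches of 50 bases belong to Ear11 alone, which sets it apart from Ear2.

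Ear2 was the least abundant of the detected genes. It had 13.0 FPKM in the RON TK-/- labelled library and 0.135 FPKM in the WT labelled library, a log2 ratio of 3.63 on the scale of FPKM + 1, which understates the 96.6-fold ratio of the deposited values. An estimated 542 reads lay behind the value of the RON TK-/- labelled library and 6.09 behind that of the WT labelled library. Ear2 (NM_007895, 716 bases) lies on chromosome 14 from 44102654 to 44103531.

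The level of Ear2 is uncertain as well. The Ear12 row, of 471 bases, lies within the Ear2 locus, and had 35.8 FPKM in the RON TK-/- labelled library and 3.16e-05 FPKM in the WT labelled library. Together the overlapping rows had 48.8 FPKM in the RON TK-/- labelled library and 0.135 FPKM in the WT labelled library, and how the reads divide between them cannot be read from the tables. Of 670 stretches of 50 bases in the Ear2 transcript 41.5% also occur elsewhere in the GENCODE annotation, 174 in Ear10, 158 in Ear1 and others in Ear pseudogenes. Ear12 was not among the genes found there, so that share leaves out its overlap with Ear2. The Ear2 transcript was 96.4% identical to Ear1 over 717 positions and 81.4% identical to Ear11 over 699.

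**Figure D3:**
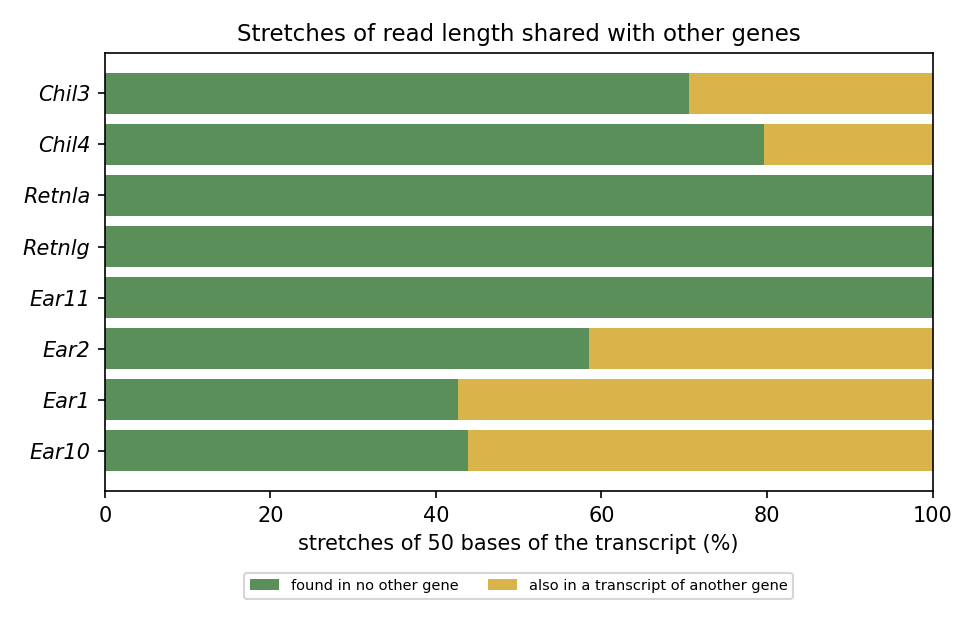
Share of the stretches of 50 bases, the read length, in each transcript that occur in no other gene of the GENCODE annotation (green) or also in a transcript of another gene (yellow), for the 6 genes and for Ear1 and Ear10. The overlap of Ear12 with Ear2 is not counted in these shares. Retnla, Retnlg and Ear11 share 0%, whereas Ear2 shares 41.5%, Chil3 29.4% and Chil4 20.4%.

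The promoter windows of Ear11 and Ear2 held neither STAT-type motif, and are shown as the counterpart of the windows above, in lower case throughout.
Ear11, chr14:51256063-51256362, minus strand: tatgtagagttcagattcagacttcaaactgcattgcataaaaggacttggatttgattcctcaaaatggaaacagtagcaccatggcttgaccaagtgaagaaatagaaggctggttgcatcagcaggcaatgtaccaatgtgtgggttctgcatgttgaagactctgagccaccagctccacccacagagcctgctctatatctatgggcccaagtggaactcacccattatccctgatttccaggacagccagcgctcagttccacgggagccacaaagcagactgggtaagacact
Ear2, chr14:44102404-44102703, plus strand: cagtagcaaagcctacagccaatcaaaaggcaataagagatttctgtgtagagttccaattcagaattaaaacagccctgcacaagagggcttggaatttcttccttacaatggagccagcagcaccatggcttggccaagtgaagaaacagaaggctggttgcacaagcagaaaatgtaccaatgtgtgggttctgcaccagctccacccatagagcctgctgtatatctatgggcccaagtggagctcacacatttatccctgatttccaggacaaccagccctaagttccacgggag
They were 81.1% identical over 275 aligned positions, and Ear11 was 60.9 times as abundant as Ear2 per length in the RON TK-/- labelled library. The motif TTNNGNAA, of the kind bound by C/EBP factors, which act with STAT6 at the mouse Retnla promoter, was searched on both strands. It was in all 6 windows, and in 40.7% of the windows across the genome. In the families it was not particular to these genes: 17 of 19 RNase A family genes with a window held it, among them Ear6, Ear14, Rnase9 and Rnase11, which were at 0 FPKM in both libraries, and so did Chil1 and Chil6. None of its matches in the 6 windows overlapped a STAT-type match, and the 3 matches in the Retnla window include TTGCTAAA from -134 to -127, next to the STAT-type match that ends at -136. The letters of a match on the minus strand of the gene are given as they stand in the printed window.

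Of the wider RNase A family 22 genes were listed beside Ear11 and Ear2, and 7 were detected. Rnase4 and Ang, the 2 with at least 1 FPKM in both libraries, lay higher by 2-fold or more under the RON TK-/- label, as did 22.7% of the 9605 genes that reached 1 FPKM in both. Another 4 reached 1 FPKM under the RON TK-/- label alone and 1 under the WT label alone, so that their direction was fixed by the way they were detected. Ear10 had 20.3 FPKM and Ear1 4.32 FPKM in the RON TK-/- labelled library, and were at 0 in the WT labelled library, with the same uncertainty from shared sequence. The angiogenin gene Ang2 had 30.4 FPKM in the RON TK-/- labelled library and was listed at 0 in the WT labelled library. Rnase4 had 310 FPKM in the RON TK-/- labelled library against 35.95 FPKM in the WT labelled library, a log2 ratio of 3.07, and Ang, the angiogenin gene that overlaps it, had 16.9 FPKM under the RON TK-/- label and 2.53 FPKM under the WT label. Rnase6, an antimicrobial ribonuclease of myeloid cells, was the gene detected under the WT label alone, with 0.232 FPKM in the RON TK-/- labelled library and 18.6 FPKM in the WT labelled library, a log2 ratio of -3.99.

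The remaining RNase A genes were below 1 FPKM in both libraries. Ear5 was listed at 0 in the RON TK-/- labelled library and at 0.108 FPKM in the WT labelled library. Ang3 (0.116 FPKM), Ang4 (0.119 FPKM) and Rnase1 (0.0762 FPKM) were above 0 in the RON TK-/- labelled library and listed at 0 in the WT labelled library. Rnase10 had 0.0898 FPKM in the RON TK-/- labelled library and 0.0490 FPKM in the WT labelled library. The other 10 genes, namely Ear4, Ear6, Ear7, Ear14, Rnase9, Rnase11, Rnase12, Rnase13, Ang5 and Ang6, were at 0 in both.

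**Figure D4:**
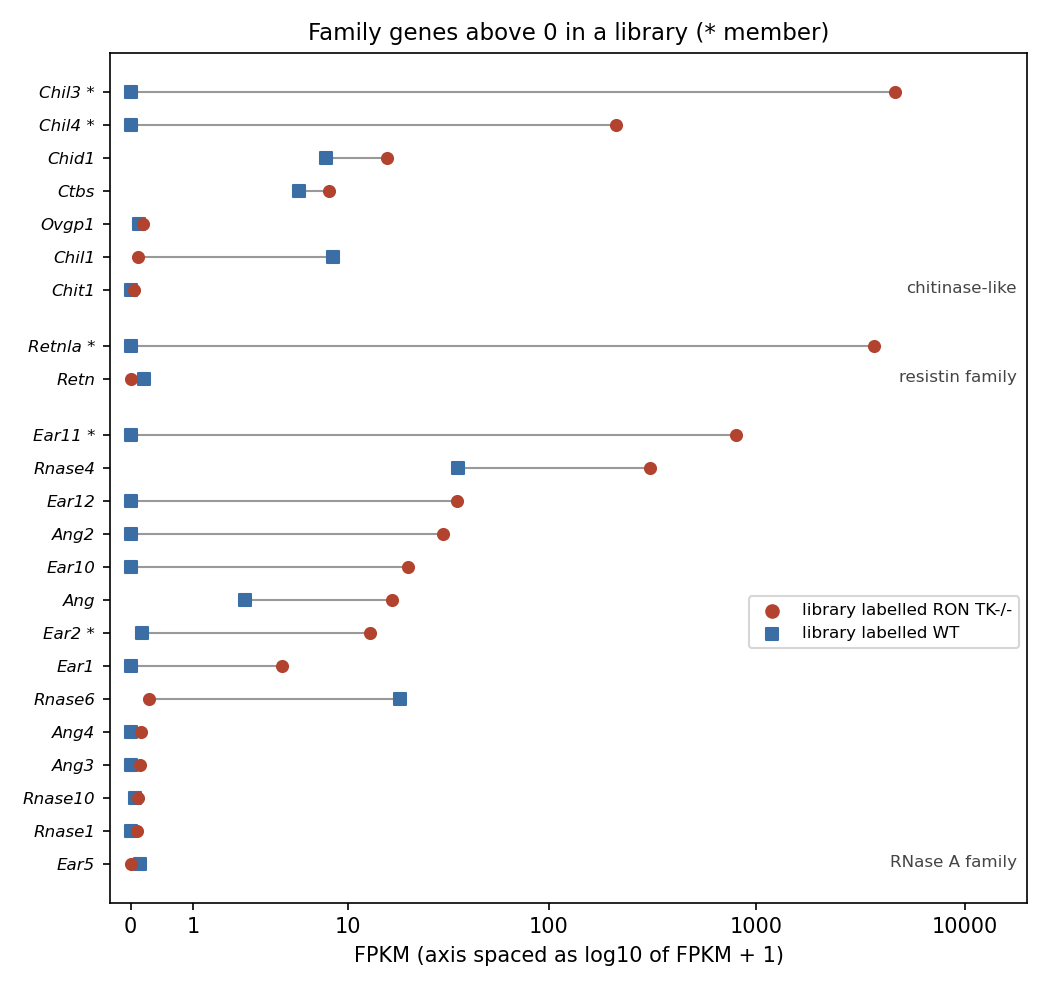
FPKM of each family gene listed above 0 in a library, in the RON TK-/- labelled library (red circles) and the WT labelled library (blue squares), joined by a line, on an axis spaced as log10 of FPKM + 1; asterisks mark genes of the set. Chil1 (0.0812 FPKM under the RON TK-/- label, 8.37 FPKM under the WT label) and Rnase6 (0.232 FPKM under the RON TK-/- label, 18.6 FPKM under the WT label) run opposite to Chil3, Retnla and Ear11. Each gene named here reached 1 FPKM in 1 library alone, which fixed its direction.

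Genes next to one another on the chromosome differed widely in level. Chia1 lies 15.4 kb from Chil3 on one side and Chil4 33.9 kb on the other, and these had 0 and 211 FPKM in the RON TK-/- labelled library. On the far side of Chil4 the next gene was Chil6 at a distance of 168 kb, at 0 in both libraries. Beyond Retnlg, at 49.7 kb, Dzip3 had 3.51 FPKM in the RON TK-/- labelled library and 1.45 FPKM in the WT labelled library. The genes next to Ear11 were Ear4, 51.1 kb away on one side, and 4930597G03Rik, 61.2 kb away on the other, and both were at 0 in both libraries. Ang6 and 4930503E14Rik, the genes on either side of the Ear2 and Ear12 locus, were at 0 in both libraries as well. Within 300 kb of Ear2, 4 of 9 listed genes had at least 1 FPKM in the RON TK-/- labelled library and 0 had in the WT labelled library. The 4 were Ear1, Ear10, Ear2 and Ear12. Ear1, Ear10 and Ear2 share stretches of 50 bases and Ear12 overlaps Ear2, so they need not be 4 separately expressed genes. Of all genes, 46.5% reached that level in the RON TK-/- labelled library and 42.6% in the WT labelled library. Within 300 kb of Chil3 the numbers were 5 of 10 genes under the RON TK-/- label and 3 under the WT label. Within 200 kb of Retnla they were 3 of 6 under the RON TK-/- label and 2 under the WT label, and within 300 kb of Ear11 they were 5 of 19 under the RON TK-/- label and 4 under the WT label.

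**Figure D5:**
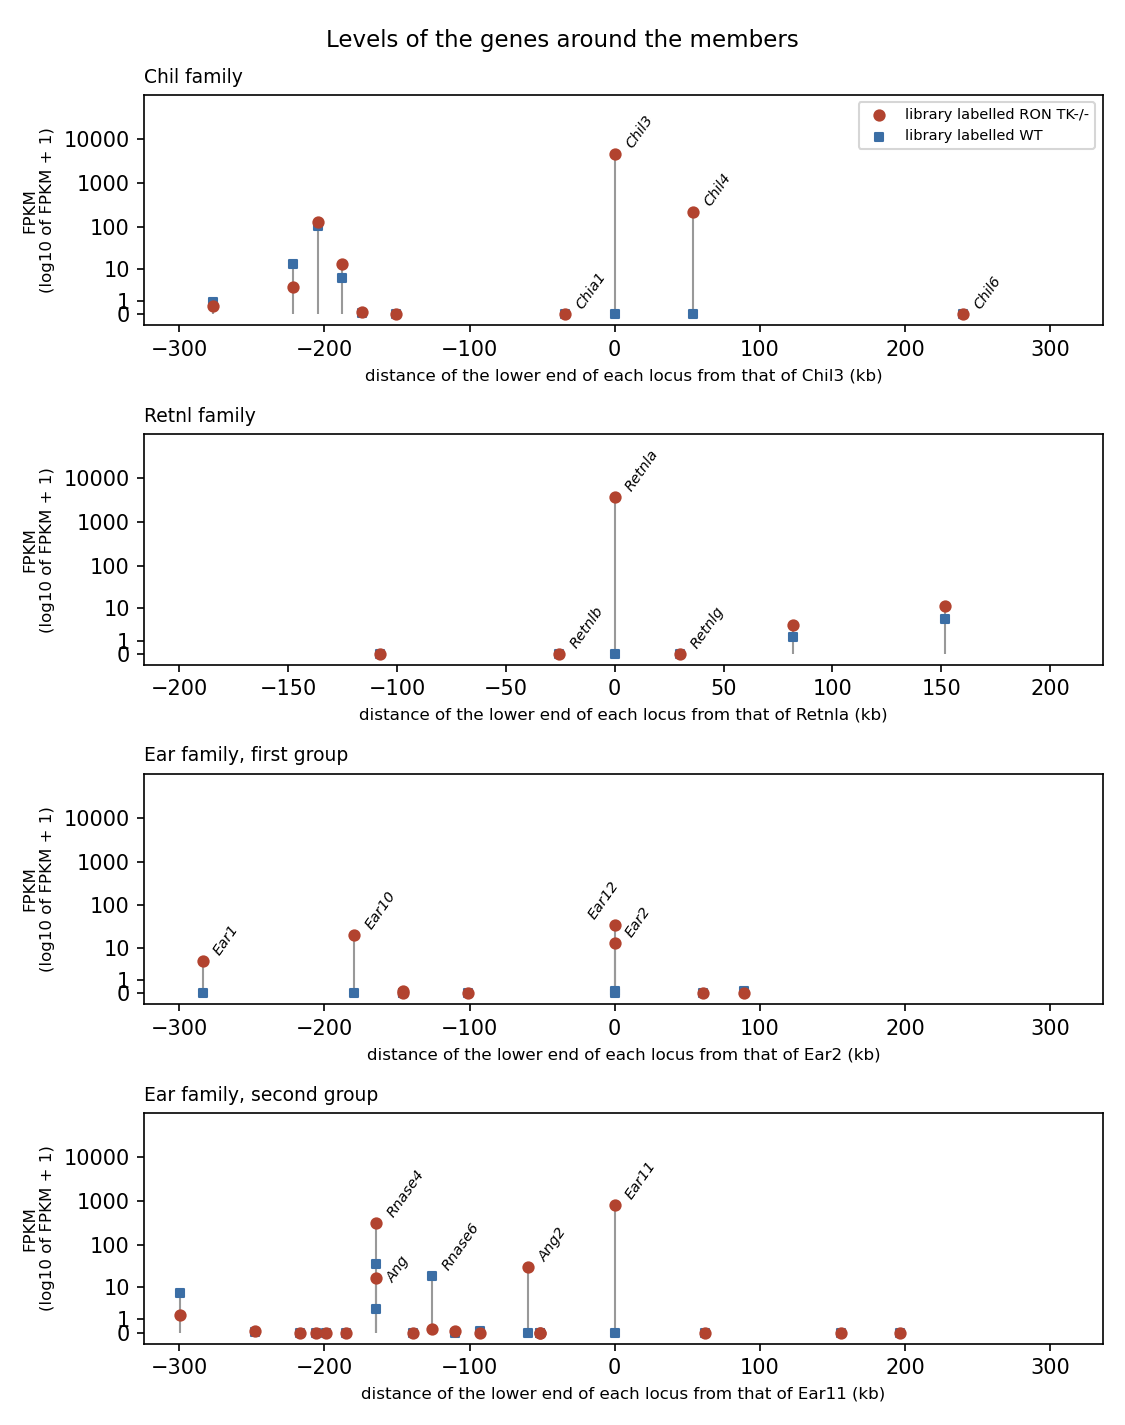
FPKM (axis spaced as log10 of FPKM + 1) of the genes around Chil3, Retnla, Ear2 and Ear11 in the RON TK-/- labelled library (red circles) and the WT labelled library (blue squares), by distance in kb from the named gene. Retnla stands at 3665 FPKM between Retnlb and Retnlg at 0, and Ear11 and Ear2 lie in separate groups.

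Outside the set, the genes with the most similar pair of levels were looked up for each gene with at least 5 FPKM, by the smallest distance of log2(FPKM + 1) over the 2 libraries; with 2 libraries this measure is coarse. Arg1, the arginase of alternative activation, was the nearest gene outside the set to both Chil3 (distance 1.01) and Retnla (distance 1.10), with 5041 FPKM in the RON TK-/- labelled library and 1.005 FPKM in the WT labelled library, and Mgl2 and Rbp4 followed for both. The lectin gene Mgl2, with 411 FPKM under the RON TK-/- label and 0.616 FPKM under the WT label, was nearest to Ear11 (distance 1.17), followed by the retinol carrier gene Rbp4, with 323 FPKM under the RON TK-/- label and 1.73 FPKM under the WT label, and by Msx3. Nearest to Chil4 were the homeobox gene Msx3 (distance 0.32, 169 FPKM under the RON TK-/- label, listed at 0 under the WT label), Tmem26 (distance 0.51, 154 FPKM under the RON TK-/- label, 0.178 FPKM under the WT label) and the claudin gene Cldn11 (distance 0.61, 138 FPKM under the RON TK-/- label, listed at 0 under the WT label). Nearest to Ear2 were Pdcd1lg2, which encodes the checkpoint ligand PD-L2 (distance 0.13, 13.7 FPKM under the RON TK-/- label, 0.0486 FPKM under the WT label), Aif1l (distance 0.18, 14.0 FPKM under the RON TK-/- label, 0.261 FPKM under the WT label) and the E-cadherin gene Cdh1 (distance 0.20, 14.7 FPKM under the RON TK-/- label, 0.0477 FPKM under the WT label).

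Other target genes of interleukin-4 were read from a list of 28, which holds none of the 6 genes and of which 24 were detected. Of these, 16 reached 1 FPKM in both libraries, and 8 of the 16 lay higher by 2-fold or more under the RON TK-/- label, 4 lower and 4 within 2-fold, against 22.7% higher and 7.67% lower among all genes with 1 FPKM in both. After median rescaling 7 of the 16 lay higher and 5 lower, against 764 higher and 1196 lower of all 9605 genes with 1 FPKM in both. The other 8 detected genes reached 1 FPKM under the RON TK-/- label alone, which fixed their direction, and with them 16 of 24 lay higher. The median log2 ratio of the 24 was 2.55 beside 0.57 for all detected genes. It includes the 8 genes of fixed direction, so it describes the 24 genes and is not a result about the list. Arg1, Mgl2, Tmem26 and the eosinophil chemokine gene Ccl24 (101 FPKM in the RON TK-/- labelled library, listed at 0 in the WT labelled library) lay furthest apart. The lower genes were Cd83 (16.9 FPKM in the RON TK-/- labelled library and 447 FPKM in the WT labelled library), the chemokine genes Ccl22 (4.03 FPKM under the RON TK-/- label, 53.2 FPKM under the WT label) and Ccl17 (1.37 FPKM under the RON TK-/- label, 10.4 FPKM under the WT label), and the transglutaminase gene Tgm2 (84.1 FPKM under the RON TK-/- label, 282 FPKM under the WT label). The 4 within 2-fold were Batf3, Tfec, Slc7a2 and Ch25h.

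All 22 genes of a list for the interleukin-4 pathway had at least 1 FPKM in each library. The list holds receptor chains, kinases, transcription factors and feedback inhibitors, among others. Il4ra, the receptor chain that binds interleukin-4, had 59.6 FPKM in the RON TK-/- labelled library and 52.3 FPKM in the WT labelled library, a log2 ratio of 0.19 that turned to -0.38 after median rescaling. Stat6 had 48.8 FPKM in the RON TK-/- labelled library and 25.6 FPKM in the WT labelled library. By the 2-fold rule 5 of the 22 (22.7%) lay higher, the same share as among all genes with 1 FPKM in both libraries (22.7%). On the deposited scale the higher count is therefore not a result about the list. The lower genes were 6 of the 22 (27.3%), beside 7.67% of all such genes. The list had a median log2 ratio of -0.49. After median rescaling 4 of the 22 were higher and 12 lower, beside 764 higher and 1196 lower of all 9605 such genes. The counts of the list and of all genes both depend on the scaling, and no test was run. The 5 higher genes were the transcription factor genes Klf4 (61.9 FPKM under the RON TK-/- label, 8.003 FPKM under the WT label), Pparg (26.2 FPKM under the RON TK-/- label, 2.92 FPKM under the WT label), Rxra (12.6 FPKM under the RON TK-/- label, 1.64 FPKM under the WT label) and Myc (23.2 FPKM under the RON TK-/- label, 6.55 FPKM under the WT label) and the adaptor gene Irs2 (4.52 FPKM under the RON TK-/- label, 1.34 FPKM under the WT label). Socs1, a feedback inhibitor of cytokine receptors, had 80.4 FPKM in the RON TK-/- labelled library and 432 FPKM in the WT labelled library, and the other lower genes were Cebpb, Il13ra1, Jak2, Kdm6b and Spi1.

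Inflammatory genes ran the other way. Of 24 genes 13 reached 1 FPKM in both libraries, and 12 of the 13 lay lower by 2-fold or more under the RON TK-/- label and 0 higher, also after median rescaling. The share of lower genes among all those with 1 FPKM in both libraries was 7.67%, or 1196 of 9605 genes after the rescaling. The other 11 reached 1 FPKM under the WT label alone, which fixed their direction. The median log2 ratio of all 24 was -6.62, a value that includes these 11 and only describes the genes. Cxcl10 had 0.231 FPKM in the RON TK-/- labelled library and 4711 FPKM in the WT labelled library, and Cxcl9 had 0.0797 FPKM under the RON TK-/- label and 1879 FPKM under the WT label. Irg1, which encodes the enzyme that makes itaconate, had 1.10 FPKM in the RON TK-/- labelled library and 2746 FPKM in the WT labelled library, and Cxcl11 was listed at 0 in the RON TK-/- labelled library and at 999 FPKM in the WT labelled library. The gene within 2-fold was Cd80.

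Markers of other cells that make these proteins were read beside them, because Ear proteins and Chil3 are also products of eosinophils, neutrophils or alveolar macrophages in mice. The 9 eosinophil markers summed to 1.11 FPKM in the RON TK-/- labelled library and 1.46 FPKM in the WT labelled library, none reached 1 FPKM, and Prg2, Prg3, Epx and Gata1 were at 0 in both. The 11 neutrophil markers listed summed to 3.68 FPKM in the RON TK-/- labelled library and 47.4 FPKM in the WT labelled library, of which 43.8 FPKM was Lcn2, and S100a9, Ngp, Elane and Mpo were at 0 in both. In the RON TK-/- labelled library S100a8 and Mmp8 reached 1 FPKM. S100a8 had 1.75 FPKM there and 1.44 FPKM under the WT label, and Mmp8 had 1.38 FPKM there and 0.586 FPKM under the WT label. Of the 8 alveolar macrophage markers, Fabp4 (154 FPKM in the RON TK-/- labelled library and 70.8 FPKM in the WT labelled library), Pparg and Car4 (5.02 FPKM under the RON TK-/- label, 0.214 FPKM under the WT label) were at least 2-fold higher and Marco (0.200 FPKM under the RON TK-/- label, 5.97 FPKM under the WT label) lower, while Krt79 and Fabp1 were at 0 in both. After median rescaling Fabp4 was within 2-fold. Fabp4 and Pparg reached 1 FPKM in both libraries, and 22.7% of all genes that did lay higher. Car4 reached 1 FPKM under the RON TK-/- label alone and Marco under the WT label alone, which fixed their direction. The 7 stromal markers, among them collagen genes, summed to 899 FPKM in the RON TK-/- labelled library and 674 FPKM in the WT labelled library. Of the 6 with at least 1 FPKM in both libraries 2 lay higher by the 2-fold rule (33.3%, beside 22.7% of all such genes). So small a count is not a result about the list. Col3a1 had 170.5 FPKM under the RON TK-/- label and 48.5 FPKM under the WT label. Pdgfra had 24.3 FPKM under the RON TK-/- label and 8.93 FPKM under the WT label, and was within 2-fold after median rescaling. The part of alveolar macrophage and stromal markers in the levels above was not tested. The 5 monocyte markers summed to 22.1 FPKM in the RON TK-/- labelled library and 62.1 FPKM in the WT labelled library, nearly all of it Hp. The mast cell and basophil (0.439 FPKM under the RON TK-/- label, 0.735 FPKM under the WT label), dendritic cell (0.738 FPKM under the RON TK-/- label, 2.24 FPKM under the WT label) and lymphocyte markers (0.0495 FPKM under the RON TK-/- label, 0.0418 FPKM under the WT label) had low sums in both.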

How the data were processed

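Each deposited table holds, per the file headers, FPKM and mean coverage per base for RefSeq transcripts, under column names used by Cufflinks. Build mm10 and the program DESeq, with no role, come from the submitters' processing notes. Neither aligner nor strand use is given in the sources used here. Single reads of 50 bases came from a TruSeq RNA library, per the labels. Rows of a symbol were summed. The log2 ratio sets FPKM + 1 of the RON TK-/- labelled library over FPKM + 1 of the WT labelled library. With 1 library per group no test was run. Depth was taken from the ratio of deposited coverage to FPKM (median 3.36 in the RON TK-/- labelled library and 2.99 in the WT labelled library), and estimated reads as coverage times length over read length. These estimates were whole numbers, within 0.05, for 9.25% of rows with 0.5 to 20 reads in the RON TK-/- labelled library and 9.70% in the WT labelled library, so no count model was used. Locus starts, counted from 0 in the files, are printed counted from 1.

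The genes, gene lists and comparisons were chosen with earlier results of these data known. All 6 genes matched a promoter window of RefSeq. Of 193 list entries in 15 lists, 181 matched by symbol, 6 through a RefSeq accession and 6 were not found among the listed genes. Of the matched entries, Rnase2a and Rnase2b were left out as duplicates of Ear11 and Ear5. Genes named in the text were the 6 genes, their families, their neighbours, the 4 detected genes with the largest absolute ratio in each activation list, members of counts of 6 or fewer (those beyond 5 after their values were seen), the 3 most similar genes per gene (small RNAs, Gm, LOC and Rik symbols left out), Mst1r and defining markers. Nos2, Il4ra, Stat6, S100a8 and Mmp8 were named after their values were seen. Counts over list genes with 1 FPKM in both libraries were added after the values were seen. Promoter windows and transcripts were aligned with Biopython 1.88 (match 1, mismatch -1, gap opening -2, extension -0.5, free end gaps); other steps used Python 3.11.15, pandas 2.3.3, NumPy 2.4.6, SciPy 1.17.1 and Matplotlib 3.10.9. Exact matches of 50 bases were searched on both strands of GENCODE M21 transcripts. The counting functions were tested on a copy of the WT labelled library with well expressed genes changed by known folds. Genes near 0 were not changed in that copy. Alternatives were pseudocounts of 0.1 and 5, median rescaling, TPM rescaling, the single most abundant row of a gene, no minimum or 5 FPKM, and thresholds of 1.5-fold and 4-fold.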

Additional observations from a re-analysis of the deposited data

How the results depend on the processing

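The 5 genes higher in the RON TK-/- labelled library and the 0 lower stayed at these counts under all 9 alternatives. For Ear2, the gene above 0 in both libraries, the log2 ratio of 3.63 became 5.80 with a pseudocount of 0.1, 1.81 with a pseudocount of 5, 3.10 after median rescaling and 4.52 after TPM rescaling, and it was positive under each. The ratios of Chil3, Chil4, Retnla and Ear11 depend on the pseudocount, since these genes are listed at 0 in the WT labelled library, and no fold is given for them. Of the list counts, those of the 3 families, the interleukin-4 targets and the inflammatory genes stayed within 1.5 times. In the interleukin-4 pathway list, the 5 higher genes became 3 at a 4-fold threshold, and the 6 lower became 12 after median rescaling, 10 at a 1.5-fold threshold and 1 at a 4-fold threshold. No paired analysis was possible because there is 1 library per group and no test. The level of Ear2 in the WT labelled library rests on an estimated 6.09 reads.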

Other observations

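The ratio of deposited coverage to FPKM differed between these genes in the RON TK-/- labelled library. It was 3.37 for Chil3, 3.36 for Retnla and 3.35 for Ear11, near the median of 3.36 of all rows with more than 1 FPKM. It was 3.19 for Chil4 (percentile 4.97), 2.90 for Ear2 and 2.90 for Ear12 (percentiles 0.692 and 0.708), 2.66 for Ear10 (percentile 0.239) and 2.36 for Ear1 (percentile 0.0462). Ang2 (3.18, percentile 4.62), Rnase4 (3.11, percentile 2.73) and Ang (3.11, percentile 2.72) also had low ratios, and Chil3, which shares 29.4% of its stretches of 50 bases with other genes, did not. The cause was not tested.

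Of the 23444 listed genes, 10 were at 0 in the WT labelled library and at 20 FPKM or more in the RON TK-/- labelled library. Chil3, Chil4, Retnla and Ear11 were 4 of these 10. In the opposite direction there were 6 genes. The set was chosen with earlier results of these data known, so the 4 genes are only described by this count, which does not support anything.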
